A study of Mus musculus with 6 samples.

Results

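Transcript levels of 9 genes of the non-muscle actin monomer system were described in wild-type (WT) and Ki-67 knockout mouse fibroblasts: Tmsb4x, Tmsb10, Pfn1, Pfn2, Cfl1, Cfl2, Dstn, Actb and Actg1. They were taken by gene symbol as the non-muscle actins and their monomer-binding partners, with the strong difference of Tmsb4x between knockout and WT already known, so values of knockout against WT are descriptions and carry no test for these 9 genes. They are 9 of 54146 genes counted, and all 9 were among the 13120 that passed the low-count filter. The cells are NIH/3T3, an immortalised line of embryonic Swiss mouse fibroblasts grown in serum-containing medium. The groups were WT cells, knockout clone 1 and knockout clone 2, both clones carrying Mki67 -/-, with 2 libraries of rRNA-depleted total RNA each. No other allele or agent is named for any group, each knockout line is 1 clone, and the sources used here do not say how the clones were made. The extraction protocol names 4T1, a mouse mammary tumour line, while titles, source and tissue name NIH/3T3 fibroblasts.

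Actin cycles between monomers and filaments, and cells hold a pool of monomers that small proteins keep from assembling or deliver to growing ends. Beta-thymosins (Tmsb4x, Tmsb10) sequester ATP-actin monomers, profilins (Pfn1, Pfn2) promote nucleotide exchange and feed monomers to formin-bound and other barbed ends, and cofilins with destrin (Cfl1, Cfl2, Dstn) bind ADP-actin, sever filaments and release monomers. In fibroblasts the filaments are built from beta- and gamma-actin (Actb, Actg1), and free monomers hold back the MRTF coactivators of SRF, a transcription factor of many cytoskeletal genes.

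Libraries held 3873249 (WT replicate 1) to 19678782 gene counts (clone 1 replicate 1), so WT replicate 1 is the least precise, and 3 counts corresponded to 0.775 CPM there and 0.152 CPM in the deepest. CPM are counts scaled to the size of each library, with TMM factors between libraries. Mki67, which encodes Ki-67, had 49.2 and 55.2 CPM in WT, 4.24 and 4.59 in clone 1, and 4.32 and 7.69 in clone 2. All 10 fibroblast markers were among the genes tested, with summed levels of 9631 to 11251 CPM in WT and 7323 to 8084 CPM in the knockout libraries. Of 7 epithelial markers 0 passed the filter, Epcam, Krt19 and Esrp1 had 0 counts in all 6 libraries, and their sum reached at most 1.16 CPM. The 5 endothelial markers summed to 37.8 and 44.1 CPM in WT, 12.0 and 15.5 in clone 1, and 20.3 and 22.5 in clone 2. Most of this sum was Emcn, at 10.7 to 39.6 CPM over the libraries. Cdh5 reached at most 4.24 CPM, Pecam1 0.556 and Tek 0.0505, and Kdr had 0 counts. The sum was lower in the clones, as Tmsb4x was, and the part of such cells in the Tmsb4x difference was not tested. Nothing in the labels says that the libraries of a group were grown as separate cultures, and the p-values below then cover only how far these libraries lie apart, possibly for technical reasons.

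Tmsb4x, the gene of thymosin beta 4 and the main beta-thymosin gene of WT cells here, was far lower in both clones than in WT, and lower in clone 2 than in clone 1. It lies on the X chromosome (ENSMUSG00000049775, GRCm38 X:167207093-167209315, minus strand). The WT libraries held 747 and 702 CPM of Tmsb4x, those of clone 1 136 and 132 CPM, and those of clone 2 only 46.1 and 42.2 CPM. The 3 groups did not overlap, and the 2 libraries of each group lay close together. The log2 fold change against WT was −2.43 ± 0.13 (SE) in clone 1, −4.04 ± 0.14 in clone 2 and −3.23 ± 0.10 for the mean of both clones, or 5.40, 16.4 and 9.41 times lower. In cell populations such as these, fewer cells expressing a gene and less RNA per cell cannot be told apart.

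Clone 2 against clone 1 is not the contrast named in the choice of genes and was tested. The Tmsb4x levels of both clones were known when the genes were chosen, so its p-value is a description and no independent support. Tmsb4x was 3.04 times lower in clone 2, a log2 difference of −1.60 ± 0.13 (edgeR quasi-likelihood test, adjusted p = 4.53e-06). The call held in the 14 other settings tried, with differences between −1.68 and −1.55. Of the 9 genes 3 were called between the clones, beside 3.54% of all 13120 genes tested. By direction 1 was higher in clone 2 and 2 were lower, beside 1.18% and 2.36% of all genes. The libraries of both clones did not overlap for 7 of the 9 genes, beside 47.8% of all genes. Tmsb4x is among the 3 genes called. The other calls, of Tmsb10 and Dstn, were lost on leaving out single knockout libraries. Nothing is therefore read from these counts.

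**Figure D1:**
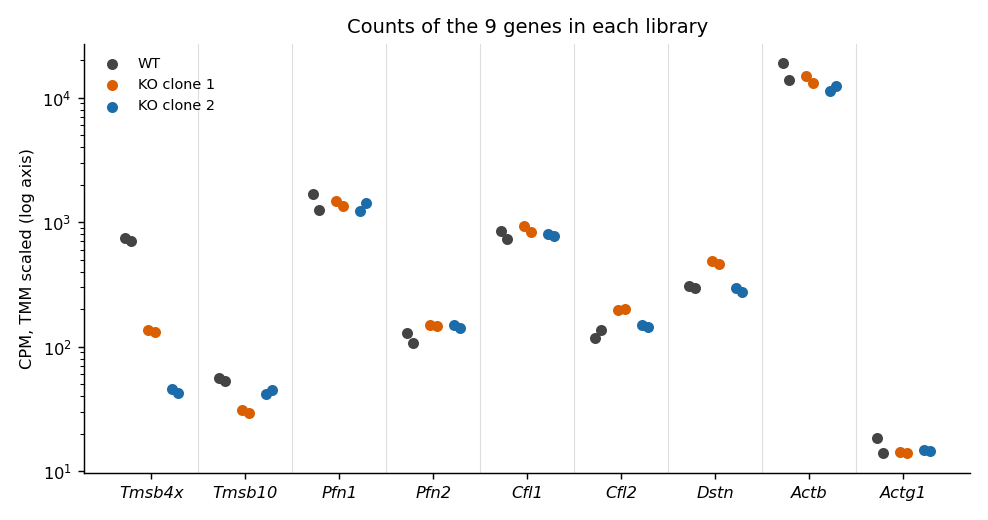
TMM-scaled CPM (log axis) of each of the 9 genes, with 1 point per library and 2 libraries per group. Tmsb4x steps down from 702 or more in WT to 132 and 136 in clone 1 and to 46.1 or less in clone 2. Pfn1 and Cfl1 overlap WT in both clones, and Actb runs from 18785 in a WT library to 11263 in a clone 2 library.

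Tmsb10 encodes the other beta-thymosin of these cells, thymosin beta 10, which binds monomers in the same way (chromosome 6, 72957347 to 72958748, minus strand). The coding sequences of both genes are 132 bases long and 69.7% identical. They are shown 5′ to 3′, from the GENCODE transcripts of GRCm38, to let the reader see how far apart the pair is for short reads, and capitals mark the 40 bases at which they differ.
Tmsb4x: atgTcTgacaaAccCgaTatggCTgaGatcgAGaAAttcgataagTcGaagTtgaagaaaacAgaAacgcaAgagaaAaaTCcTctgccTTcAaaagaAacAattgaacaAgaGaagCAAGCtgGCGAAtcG
Tmsb10: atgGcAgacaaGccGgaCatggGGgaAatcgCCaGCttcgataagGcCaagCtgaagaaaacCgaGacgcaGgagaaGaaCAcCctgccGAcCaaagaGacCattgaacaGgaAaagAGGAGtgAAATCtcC
No 50-base stretch of the main Tmsb4x transcript occurs in an annotated transcript of another gene, so 100% of its windows are unique. For Tmsb10 the share was 56.5%, and 6 other genes, 5 of them pseudogenes, matched at 95% identity or more over at least 100 bases. Gm9844 on chromosome 7 was the longest such match, 99.0% identical over 413 bases. Reads that fall in these stretches and hit several places stay out of the gene counts, so Tmsb10 is measured on its unique parts and its level is a lower estimate. Copies that are not annotated were not examined.

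Tmsb10 had 56.2 and 52.9 CPM in WT, 31.0 and 29.1 in clone 1, and 42.0 and 44.9 in clone 2. The WT libraries were highest, the clone 1 libraries lowest, and the groups did not overlap. Against WT the log2 fold change was −0.86 ± 0.14 in clone 1, −0.32 ± 0.14 in clone 2 and −0.59 ± 0.12 for both clones. Between clones the direction was opposite to that of Tmsb4x: Tmsb10 was higher in clone 2 by 0.53 ± 0.13 on the log2 scale (edgeR quasi-likelihood adjusted p = 0.0408). That call was lost when any 1 of the 4 knockout libraries was left out, with differences of 0.48 to 0.57 and adjusted p of 0.177 to 0.440.

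Per length of exon (RPKM, TMM-scaled CPM per kilobase), Tmsb4x made up 92.5% of the thymosin pair in both WT libraries, 80.4% and 80.9% in clone 1, and 50.5% and 46.6% in clone 2. The pair thus passed from a Tmsb4x majority in WT to near equality in clone 2. The ratio of Tmsb4x to Tmsb10 RPKM was 12.4 and 12.3 in WT, 4.09 and 4.23 in clone 1, and 1.02 and 0.874 in clone 2. Together both thymosins amounted to 8.40 and 10.8 RPKM per 100 RPKM of Actb in WT, 2.23 and 2.42 in clone 1, and 1.58 and 1.43 in clone 2. With unique 50-base windows as length, a setting added after the data were seen, the mean Tmsb4x share was 89.7%, 74.6% and 40.0% in the same order. The other family members Tmsb15a, Tmsb15b1, Tmsb15b2 and Tmsb15l had 0 counts in all 6 libraries, which allows at most 0.152 CPM in the deepest library and 0.775 CPM in WT replicate 1.

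**Figure D2:**
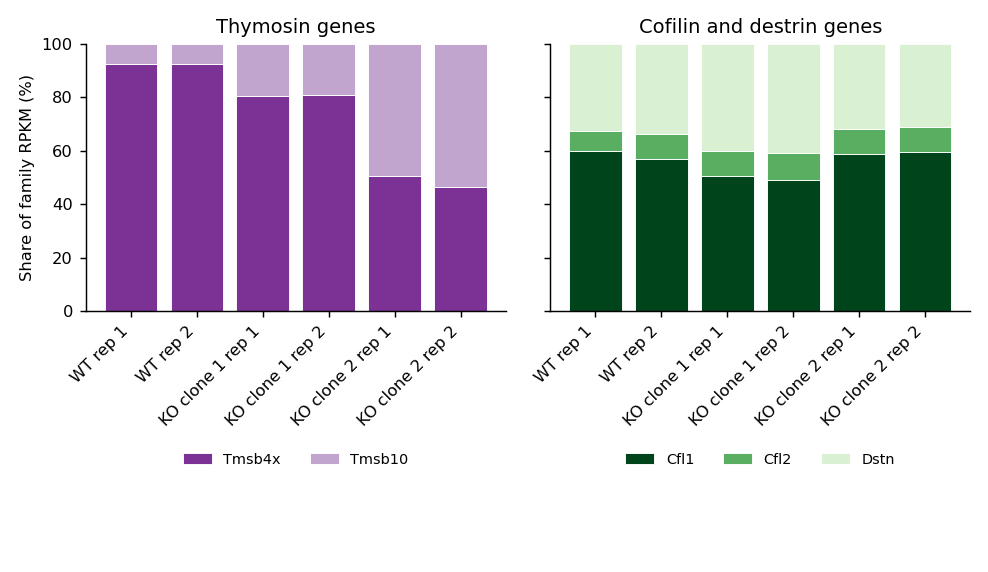
Share of each gene in its family's summed RPKM (percent, y axis) in each of the 6 libraries (x axis), for the beta-thymosins (left) and the cofilins with destrin (right). Tmsb4x takes 92.5% of the thymosin total in WT and 46.6% to 50.5% in clone 2; Dstn takes 39.9% and 40.7% of the cofilin total in clone 1 and 31.1% to 33.8% in the other libraries.

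The 6 tested genes nearest to Tmsb4x, 3 on each side, had log2 fold changes of −0.54 to 1.54 in the knockout mean, against −3.23 for Tmsb4x itself. Prps2, the gene of an enzyme of nucleotide precursor synthesis, lies 137 kb away and had a log2 fold change of 0.39 ± 0.19 in the knockout mean (edgeR quasi-likelihood adjusted p = 0.130). It was called higher without WT replicate 2, at 0.89 (adjusted p = 0.000206), in the unfiltered fit and with a replicate block. Further on the same side, Msl3, of a complex that acetylates histone H4, rose by 1.21 ± 0.14 (adjusted p = 1.88e-05), and Hccs, which attaches haem to cytochrome c, by 1.54 ± 0.26 (adjusted p = 4.92e-04). On the other side Tceanc changed by −0.21 ± 0.26 and Trappc2 by −0.19 ± 0.27, neither called. Rab9, a GTPase gene of endosome-to-Golgi transport 727 kb away, fell by 0.54 on the log2 scale (adjusted p = 0.0081), a call lost without WT replicate 2 (−0.27, adjusted p = 0.241). Over 403 other tested genes of the X chromosome the median log2 fold change of the knockout mean was 0.14, with 95 called higher and 54 lower (37.0%, beside 34.8% of all genes), and 5 had a lower value than Tmsb4x.

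**Figure D3:**
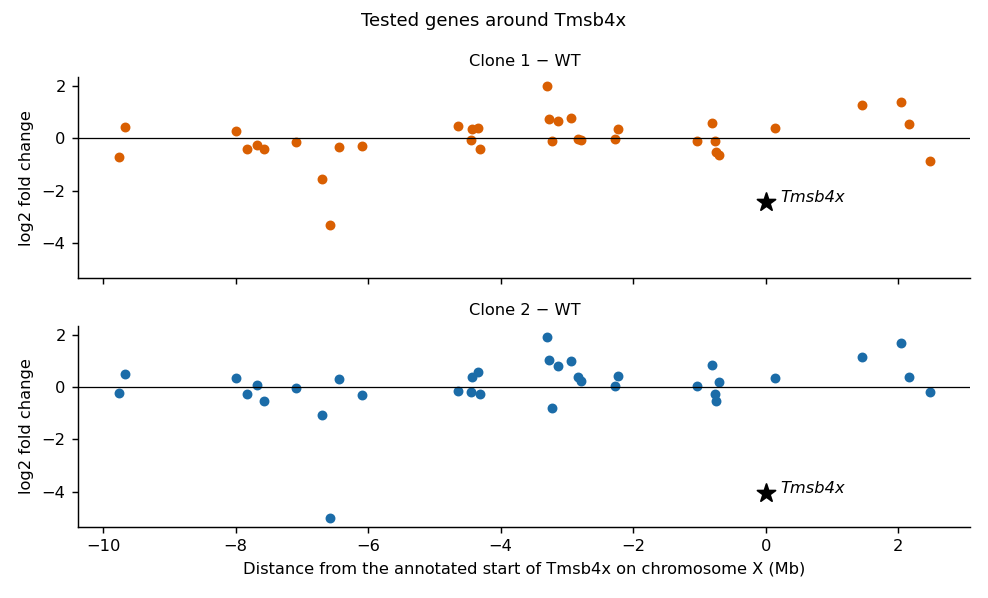
Log2 fold change against WT (y axis) of tested genes within 10 Mb of Tmsb4x on the X chromosome, by distance of their annotated starts (x axis, Mb), in clone 1 (top) and clone 2 (bottom); the star is Tmsb4x. Genes beside it scatter around 0, and 1 gene 6.58 Mb away is lower than Tmsb4x in both clones (−3.31 and −4.99).

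RefSeq promoter sequences (250 bases before to 50 after each start, GRCm38.p6) were at hand for 8 of the 9 genes, in 10 windows. The promoter of Actb was not among them and was not searched. Tmsb4x, the gene with the largest difference, holds a single GC box there (GGGCGG on either strand), whose first base lies 211 bases before the start. It is in capitals in the part of the window before annotated exons (X:167209316-167209468, minus strand, 153 bases).
Tmsb4x promoter: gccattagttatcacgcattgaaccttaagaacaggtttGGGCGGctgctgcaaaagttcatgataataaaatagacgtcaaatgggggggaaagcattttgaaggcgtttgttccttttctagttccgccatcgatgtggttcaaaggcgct
All 10 windows held a GC box, as did 35.7% of 32851 promoters of the same length. CCAAT was present in Actg1, Cfl1 and Cfl2, and in 37.4% of promoters. TATAAA (13.6% of promoters) and TGANTCA (7.81%), the letters of an AP-1 site, occurred in none of the 10, and GGAATG, a TEAD site (14.7%), in Pfn1. The CArG box, the motif that SRF binds, occurred in 1.63% of promoters and in Actg1, beginning 90 bases before its start, in capitals below (11:120348543-120348677, minus strand, 135 bases).
Actg1 promoter: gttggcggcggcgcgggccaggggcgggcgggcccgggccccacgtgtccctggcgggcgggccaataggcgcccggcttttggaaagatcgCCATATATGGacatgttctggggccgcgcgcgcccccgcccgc
These matches are letters in a window and say nothing of binding. The windows of Tmsb4x, Tmsb10, Pfn2 and Dstn held the GC box and none of the other 5 motifs searched.

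By profile over the 6 libraries, the protein-coding genes nearest to Tmsb4x among 8824 whose average log2 CPM reached 3 or more were Cth, Kcnab2, Lsp1, Ccl7 and Hist1h4a. Likeness was the Euclidean distance between centred log2 CPM values, and ranged from 1.14 for Cth to 1.56 for Hist1h4a. Cth, of cysteine synthesis from cystathionine, had 23.4 and 29.1 CPM in WT, 5.91 and 3.90 in clone 1, and 3.46 and 2.15 in clone 2. Lsp1, an actin-binding protein gene best known from leukocytes, had 21.7 and 26.8, 5.61 and 5.47, and 3.89 and 3.65 CPM. Ccl7, a chemokine gene, had 22.0 and 20.6, 7.27 and 7.61, and 3.03 and 4.04 CPM. That all 5 were lower in both clones than in WT follows from their choice by likeness to Tmsb4x in these same libraries. In clone 2 their log2 fold changes were −2.58 to −3.24, against −4.04 for Tmsb4x.

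The profilin genes lay close to their WT levels. Pfn1, the ubiquitous profilin gene (chromosome 11, 70651850 to 70654644, minus strand), had 1669 and 1244 CPM in WT, 1489 and 1339 in clone 1, and 1228 and 1429 in clone 2. The WT libraries differed from each other by more than either clone's mean differed from theirs. Its log2 fold changes were −0.04 ± 0.16 in clone 1 and −0.13 ± 0.16 in clone 2, and −0.09 ± 0.16 between clones (edgeR quasi-likelihood adjusted p = 0.866). Pfn2, the profilin gene best known from neurons (chromosome 3, 57841895 to 57848079, minus strand), had 129 and 108 CPM in WT, 149 and 146 in clone 1, and 150 and 142 in clone 2. Every knockout library lay above both WT libraries, by 0.33 ± 0.13 on the log2 scale in clone 1 and 0.31 ± 0.13 in clone 2. Pfn1 made up 94.7% ± 0.414 of the profilin RPKM in WT (SD, n = 2), 93.4% ± 0.402 in clone 1 and 93.0% ± 0.928 in clone 2. Pfn3 had 0 counts throughout and Pfn4 at most 6 in any library.

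Among the severing proteins the clones parted over Dstn. Dstn encodes destrin, the actin-depolymerising factor (chromosome 2, 143915320 to 143943324, plus strand). It had 308 and 294 CPM in WT, 491 and 463 in clone 1, and 295 and 274 in clone 2. Clone 1 stood above WT by 0.66 ± 0.13 on the log2 scale, while clone 2 overlapped WT (−0.08 ± 0.13). Between clones the log2 difference was −0.75 ± 0.12, or 1.68 times lower in clone 2 (edgeR quasi-likelihood adjusted p = 0.00329). Leaving out clone 1 replicate 1, clone 2 replicate 1 or clone 2 replicate 2 gave differences of −0.72, −0.81 and −0.70 with adjusted p of 0.0558, 0.0561 and 0.135.

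Cfl2, the muscle-type cofilin gene (chromosome 12, 54858809 to 54862877, minus strand), had 118 and 137 CPM in WT, 197 and 200 in clone 1, and 149 and 144 in clone 2. Both clones lay above WT, clone 1 by 0.63 ± 0.13 and clone 2 by 0.19 ± 0.13. The difference between clones, −0.44 ± 0.13, missed the threshold (edgeR quasi-likelihood adjusted p = 0.0787). It passed without WT replicate 1 (adjusted p = 0.00939), without WT replicate 2 (adjusted p = 0.0085), without the low-count filter (adjusted p = 0.0197) and in DESeq2 (adjusted p = 0.0434). Cfl1, the non-muscle cofilin gene (chromosome 19, 5490455 to 5495201, plus strand), had 847 and 738 CPM in WT, 929 and 829 in clone 1, and 808 and 778 in clone 2. Its groups overlapped WT, with log2 fold changes of 0.15 ± 0.14 and 0.00 ± 0.14, and −0.15 ± 0.14 between clones (adjusted p = 0.692). Cfl1 shares its whole coding sequence with a pseudogene, Gm6180, at 98.8% identity over 498 bases, and 77.0% of the 50-base windows of its main transcript are unique.

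Of the cofilin family's RPKM, Dstn held 32.6% and 33.8% in WT, 39.9% and 40.7% in clone 1, and 31.9% and 31.1% in clone 2. The share of Cfl1 was lowest in clone 1, at 50.7% and 49.0% against 57.0% to 60.1% in the other libraries.

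The actin genes themselves were on very different scales. Actb, the beta-actin gene (chromosome 5, 142903115 to 142906754, minus strand), had 18785 and 13753 CPM in WT, 14851 and 13199 in clone 1, and 11263 and 12402 in clone 2. Clone 2 lay below both WT libraries and clone 1 overlapped them. The log2 fold changes were −0.21 ± 0.19 and −0.46 ± 0.19, and the clones did not differ detectably (−0.25 ± 0.19, edgeR quasi-likelihood adjusted p = 0.627). The value rests on the WT libraries, which lie apart: the knockout mean was −0.54 without WT replicate 2 and −0.10 without WT replicate 1.

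Actg1, the gamma-actin gene (chromosome 11, 120345690 to 120348542, minus strand), had 18.5 and 13.9 CPM in WT, 14.4 and 14.0 in clone 1, and 14.9 and 14.6 in clone 2. Both clones overlapped WT (−0.14 ± 0.18 and −0.08 ± 0.18), and the difference between them was 0.05 ± 0.17 (adjusted p = 0.931). It rested on 68 to 286 counts per library. The first 150 coding bases of Actb and Actg1 are shown with the 27 bases at which they differ in capitals, followed by the matching bases of Gm12715, a processed pseudogene on chromosome 4, which hold 0 differences from Actg1.
Actb: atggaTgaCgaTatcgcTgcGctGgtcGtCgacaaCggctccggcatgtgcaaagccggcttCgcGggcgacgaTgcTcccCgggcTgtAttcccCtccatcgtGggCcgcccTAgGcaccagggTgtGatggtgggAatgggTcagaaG
Actg1: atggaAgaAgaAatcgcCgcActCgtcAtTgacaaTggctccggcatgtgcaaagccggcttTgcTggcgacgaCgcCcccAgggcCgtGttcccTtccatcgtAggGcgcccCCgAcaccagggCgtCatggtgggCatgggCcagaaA
Gm12715: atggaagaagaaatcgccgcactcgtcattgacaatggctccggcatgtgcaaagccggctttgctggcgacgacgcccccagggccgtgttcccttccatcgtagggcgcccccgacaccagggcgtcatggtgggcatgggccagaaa
Over the whole coding sequence Actb and Actg1 are 88.6% identical, while Gm12715 matches Actg1 at 99.6% over 1128 bases. With 5 further pseudogenes it covers 100% of the coding bases of Actg1 at 95% identity or more, against 0% for Actb. Of the main Actg1 transcript 43.3% of 50-base windows are unique, against 85.8% for Actb. The 6 pseudogenes themselves received 0 to 21 counts per library. The Actg1 level thus covers its unique parts. Actg1 was 0.098% to 0.134% of the summed actin RPKM by exon length, and still 0.140% to 0.191% with unique windows as length. Why it stayed so low was not tested, and the level is not read as an amount of gamma-actin RNA beside Actb.

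Counts without regard to strand gave nearly the same values. Opposite-strand reads made up at most 1.76% of any of the 9 genes' reads, seen in Tmsb10, and the log2 fold changes moved by at most 0.02. For Cfl2, which overlaps the antisense gene 1700081N11Rik, the unstranded count was 96.3% to 97.5% of the stranded one. Tmsb4x had 2751 and 7782 stranded counts in WT against 2753 and 7794 without strand.

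**Figure D4:**
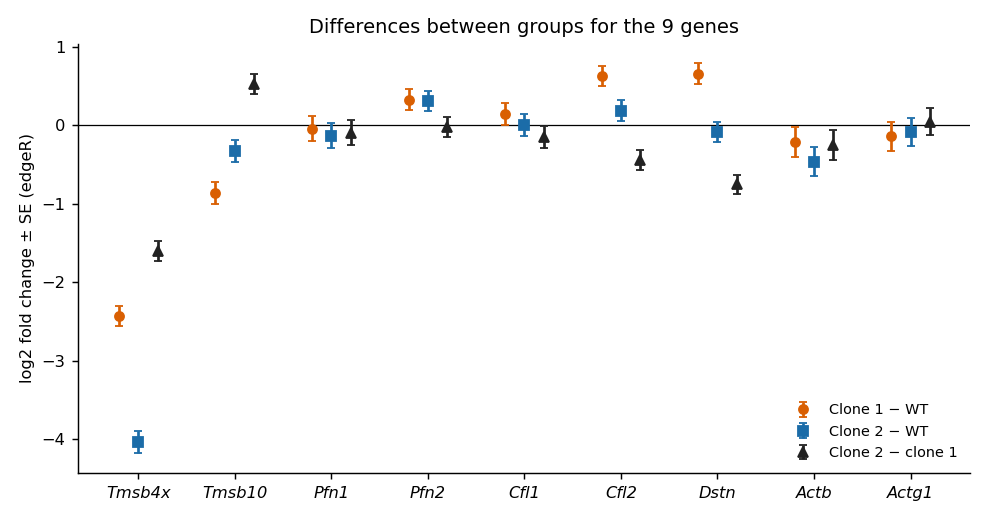
Log2 fold change (y axis, points) with its standard error (bars) from edgeR for each of the 9 genes (x axis), for clone 1 against WT, clone 2 against WT and clone 2 against clone 1. Tmsb4x lies lowest in all 3; Tmsb10 is higher and Dstn lower in clone 2 than in clone 1, while Pfn1, Cfl1 and Actg1 lie within 0.15 of 0.

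Set against the background, 4 of the 9 genes were called in the knockout mean (Tmsb4x and Tmsb10 lower, Pfn2 and Cfl2 higher), where 34.8% of all genes tested were called, 16.6% higher and 18.2% lower. In clone 1 alone 4 were called (Tmsb4x and Tmsb10 lower, Cfl2 and Dstn higher; 31.7% of all genes, 15.2% higher and 16.5% lower). In clone 2 alone 1 was called, Tmsb4x (27.4% of all genes, 12.9% higher and 14.5% lower). Libraries did not overlap with WT for 4 of the 9 genes in both clones together, 5 in clone 1 and 5 in clone 2, beside 49.8%, 64.6% and 64.8% of all genes. The clones share the WT libraries, and since the genes were chosen on this contrast nothing is read from these counts. The median log2 fold change of the 9 genes was −0.09, −0.04 and −0.08 in the knockout mean, clone 1 and clone 2, beside 0.00, 0.01 and 0.00 over all genes. Tmsb4x ranked 146th from the lowest of 13120 in the knockout mean, 211th in clone 1 and 118th in clone 2.

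The order of levels per length of exon shifted with Tmsb4x. In WT it ran from Actb (6073 ± 1328 RPKM, SD, n = 2) over Pfn1 (606 ± 125) and Tmsb4x (529 ± 23.5), which overlapped, to Cfl1 (279 ± 27.0) and Dstn (158 ± 5.20). Below them Tmsb10 (42.8 ± 1.83), Cfl2 (39.0 ± 4.23) and Pfn2 (33.4 ± 4.17) overlapped as neighbours, and Actg1 was lowest. Tmsb4x stood in place 3 in WT, in place 5 in clone 1 (97.9 ± 1.95 RPKM, below Dstn) and in place 8 in clone 2 (32.2 ± 1.99 RPKM, overlapping Tmsb10 at 34.1 ± 1.60). By longest transcript its places were 2, 5 and 7, and by unique windows 3, 5 and 8, where it did not overlap Tmsb10 in clone 2 (32.4 ± 2.01 against 48.6 ± 2.28). For each 100 RPKM of Actb there were 7.77 and 9.97 of Tmsb4x in WT, 1.79 and 1.96 in clone 1 and 0.799 and 0.665 in clone 2. The same ratio for Pfn1 was 9.90 and 10.1 in WT, 11.2 and 11.3 in clone 1, and 12.1 and 12.8 in clone 2. For Cfl1 it was 4.25 and 5.06, 5.89 and 5.91, and 6.76 and 5.91 in the same order. Both ratios were higher in every knockout library than in WT, and their divisor Actb was itself lower in clone 2 than in WT.

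The wider actin system was described from 11 lists with 149 genes, 127 of them tested. In the knockout mean 24 were called higher and 33 lower, where 34.8% of all genes were called, and between the clones 1 was higher and 17 lower in clone 2, where 3.54% were. The median log2 fold change of the 127 genes was −0.05 in the knockout mean and −0.08 between clones, beside 0.00 and 0.01 over all genes. The 18 calls between clones depended on single libraries, with 6 to 10 calls on leaving out a knockout library and 29 on leaving out either WT library.

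A mixed list held other genes of monomer binding and of the cofilin fold, and also Pdlim7 and the Mical genes. Of its 11 tested genes 7 fell in the knockout mean, Pdlim7 and Mical1 among them, and 1 rose. Over all genes 18.2% were called lower and 16.6% higher. The median log2 fold change of the list was −0.53, beside 0.00 over all genes. Twf2, of twinfilin, which sequesters monomers and caps filaments, fell by 0.68 on the log2 scale, with 67.7 and 55.1 CPM in WT against 34.1 to 41.6 CPM in the clones (edgeR quasi-likelihood adjusted p = 8.91e-04). Mical1, of an enzyme that oxidises actin, fell by 1.08 (adjusted p = 0.00116). Mical2, a relative of it, was lower in clone 2 than in clone 1 by 0.69 (adjusted p = 0.00497), a call lost on leaving out replicate 1 (−0.76, adjusted p = 0.0602) or replicate 2 of clone 2 (−0.63, adjusted p = 0.166). Among 14 regulators of cofilin 3 rose and 5 fell. The kinase gene Tesk1, whose product phosphorylates cofilin, fell by 0.81 (adjusted p = 3.81e-04), while Rock1 and Rock2, kinases upstream of the LIM kinases, rose by 0.94 ± 0.25 and 1.07 ± 0.22.

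The nucleator lists held genes called in either direction, and their counts are read beside 34.8% of all genes called in the knockout mean, 16.6% higher and 18.2% lower. Of 9 genes of the Arp2/3 complex, which starts branched filaments, 3 rose in the knockout mean, and Actr2, of a core subunit, rose by 0.64 ± 0.15 (edgeR quasi-likelihood adjusted p = 0.00454). Of 15 Arp2/3 activators 3 rose and 2 fell: Wasf2, of the WAVE complex, fell by 0.76 (adjusted p = 2.30e-04), and its paralog Wasf3 rose by 0.77 (adjusted p = 0.00409). Formins and tandem nucleators split 4 against 4 among 16. Diaph3, a formin gene, rose by 0.91 (adjusted p = 0.00106) and Cobll1 by 1.27 (adjusted p = 1.80e-04), whereas the formin gene Fhod3 fell by 2.34 (adjusted p = 1.48e-04), with 3.80 and 2.53 CPM in WT against 0.503 to 0.679 CPM in the clones.

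In the remaining lists the counts again stand beside 16.6% of all genes called higher and 18.2% lower. Among capping and severing genes 2 of 13 rose and 3 fell, and Capg, of a gelsolin-family capping protein, fell by 1.13 ± 0.11 (edgeR quasi-likelihood adjusted p = 3.06e-06). Crosslinkers and tropomyosins had 4 higher and 3 lower of 15. The bundling protein gene Fscn1 rose by 0.53 (adjusted p = 0.00554). Lcp1, of L-plastin, a bundling protein typical of leukocytes, had 7.61 and 8.84 CPM in WT, 2.48 and 2.07 in clone 1, and 0.309 and 0.652 in clone 2. Like Tmsb4x it was lower in both clones, by 2.99 in the mean (adjusted p = 1.09e-06), and lower in clone 2 than in clone 1 by 2.24 (adjusted p = 0.00324; adjusted p = 0.0644 and −1.80 without clone 2 replicate 1). Of 8 leukocyte markers 4 were tested, and the 8 summed to 21.6 to 27.2 CPM in WT and 32.6 to 38.1 CPM in the clones. Most of this sum was Cd68, at 11.7 to 19.3 CPM over the libraries, and Csf1r, at 3.7 to 22.5 CPM. Coro1a reached at most 1.36 CPM, Lyz2 1.3, Ptprc 0.361, Cd79a 0.272 and Itgam 0.0652, and Cd3e was at 0. The part of such cells in the Lcp1 difference was not tested. Actin folding genes had 3 higher and 3 lower of 16. Vbp1, a prefoldin subunit gene, rose by 0.84 (adjusted p = 0.00393).

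The muscle actins and part of the SRF list separated the clones most. Acta1, of skeletal actin, had 2.45 and 1.71 CPM in WT, 14.1 and 13.1 in clone 1, and 0.309 and 0.326 in clone 2. These levels rest on few counts outside clone 1: 9 and 19 in WT, 279 and 208 in clone 1, and 5 and 5 in clone 2. Acta1 was thus above WT in clone 1 and below it in clone 2, and the clones differed by −5.38 ± 0.30 on the log2 scale (edgeR quasi-likelihood adjusted p = 1.72e-07). Acta2 and Actg2, of smooth muscle actins, were named after their values were seen. Acta2 had 1022 and 804 CPM in WT, 1022 and 1038 in clone 1, and 154 and 166 in clone 2 (−2.69 between clones, adjusted p = 1.83e-07). Actg2 had 28.0 and 23.1, 46.9 and 45.8, and 6.05 and 7.50 CPM in the same order (−2.77, adjusted p = 4.07e-07).

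Of 15 tested genes of the list of SRF, MRTF and cytoskeletal targets, 4 were lower in clone 2 than in clone 1, where 2.36% of all genes were. Tagln, of the actin-binding protein transgelin, had 24.5 and 16.6 CPM in WT, 12.6 and 13.1 in clone 1, and 0.926 and 0.652 in clone 2. Myl9, of a myosin light chain, had 15.2 and 9.65, 5.46 and 6.85, and 0.494 and 0.652 CPM. The clones differed by −4.00 ± 0.28 for Tagln (edgeR quasi-likelihood adjusted p = 1.61e-06) and −3.40 ± 0.34 for Myl9 (adjusted p = 3.01e-05). The 5 smooth muscle markers, which include Acta2 and Tagln, summed to 875 and 1117 CPM in the WT libraries, 1084 and 1092 in clone 1, and 203 and 221 in clone 2. Most of this sum was Acta2 again. Smtn had 40.8 to 68.7 CPM over the libraries, Cnn1 at most 1.09 and Myh11 at most 0.0505. The 6 skeletal muscle markers, which include Acta1, summed to 9.65 and 10.3, 33.3 and 35.4, and 11.1 and 11.5 CPM, and Myod1 and Myog were at 0. The part of other cells in these differences was not tested.

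**Figure D5:**
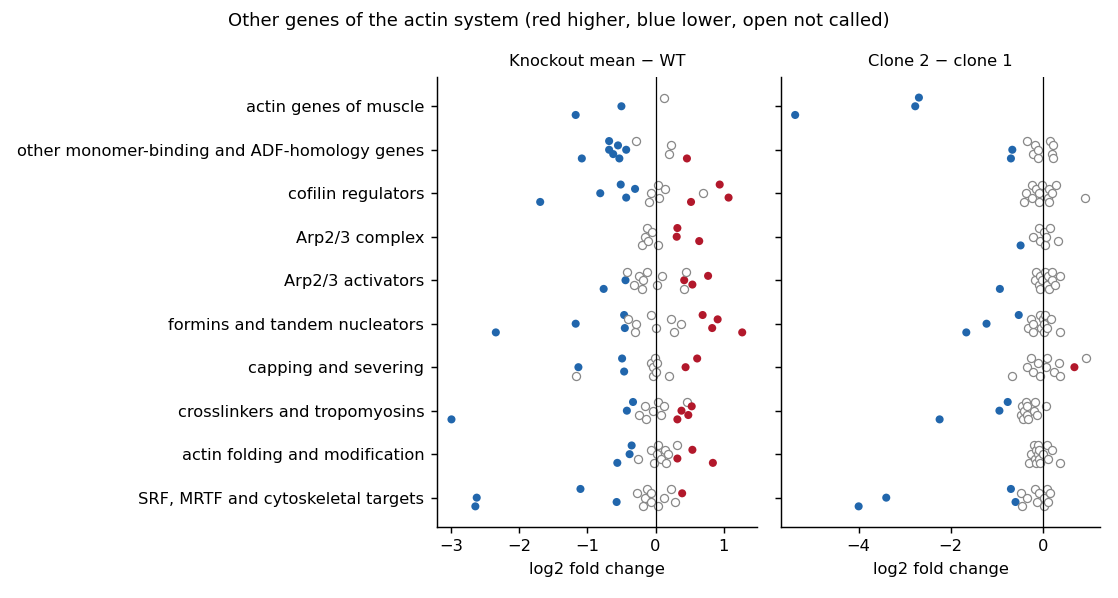
Log2 fold change (x axis) of each tested gene of the 10 lists that had tested genes (y axis), for the knockout mean against WT (left) and clone 2 against clone 1 (right); red points were called higher, blue lower, open points were not called. The 3 muscle actins tested lie far to the left between clones, from −5.38 to −2.69.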

How the data were processed

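Ribosomal-RNA-depleted, strand-specific libraries of 6 samples in 3 groups were used. Per the submitters' processing notes, reads were checked with FastQC and aligned with STAR 2.6.0c to GRCm38; which annotation they counted over, the sources used here do not say. The deposited files hold raw read counts for each gene in 3 columns, without strand and for each strand, and the reverse-strand column was used. Rows without a gene took 46.6% to 50.5% of reads (multimapping reads 28.3% to 30.3%) and entered neither library sizes nor tests. Gene names and exons came from GENCODE M21, which matched 54079 of 54146 identifiers.

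Counts were filtered with filterByExpr (minimum count 10), scaled by TMM (factors 0.951 to 1.03) and fitted with edgeR 4.0.16 (R 4.3.3), with 1 coefficient per group over all 6 libraries and 3 residual degrees of freedom. Genes with a Benjamini-Hochberg adjusted p under 0.05 over all 13120 genes tested were called. SE was the log2 fold change divided by the root of F. Replicates differed by more than sampling noise (chi-square per degree of freedom 12.5 to 20.1). DESeq2 1.42.0, limma-voom (limma 3.58.1), other scalings, filters, strand columns and lengths, and leaving out each library were tried. The steps were tested on simulated data. Shared sequence was sought as exact windows of 50 bases and with BLAST+ 2.17.0.

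The genes and lists were chosen with earlier results of these data known. Named are the 9 genes and Mki67, up to 2 genes per list and direction with the largest change called in the same direction in the knockout mean and both clones, up to 1 per list and direction between clones, the 3 nearest tested genes on each side of Tmsb4x, its 5 nearest profiles and defining markers. Counting intervals and floors cover counting error only.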

Additional observations from a re-analysis of the deposited data

Results flagged for a closer look

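The following genes differed between clone 2 and clone 1 (edgeR quasi-likelihood test, adjusted over all genes), so their differences from WT were not the same in both clones. Each value is a log2 difference, clone 2 minus clone 1. Of the 18 other actin genes called between clones, those picked by the naming rule and the muscle actins are given. Actn1, Flnc, Daam2, Pdlim7, Itga5, Myh9 and Inf2 were also called, all lower in clone 2, and are not described further.

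Tmsb4x was lower in clone 2 (−1.60, adjusted p = 4.53e-06) and so was Dstn (−0.75, adjusted p = 0.00329), while Tmsb10 was higher (0.53, adjusted p = 0.0408). The levels of Tmsb4x in both clones were known when the genes were chosen, so its p-value is a description. The call of Tmsb10 was lost without any 1 knockout library (adjusted p of 0.177 to 0.440) and that of Dstn without 3 of them (0.0558 to 0.135). The largest differences were those of the contractile genes: Acta1 (−5.38), Tagln (−4.00), Myl9 (−3.40), Actg2 (−2.77) and Acta2 (−2.69). Lcp1 (−2.24), the leukocyte-type bundling protein gene, and Lmod1 (−1.66, adjusted p = 0.0477), of a filament nucleator of smooth muscle, were also lower in clone 2. The Lcp1 call was lost without clone 2 replicate 1 (−1.80, adjusted p = 0.0644). Lmod1 had at most 1.44 CPM in any library and lost its call in 9 of 13 other settings.

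Smaller differences were found for Cyfip2 of the WAVE complex (−0.93, adjusted p = 0.0345), for Mical2 (−0.69, adjusted p = 0.00497; 0.0602 and 0.166 without clone 2 replicates 1 and 2), for the Arp2/3 subunit gene Arpc5 (−0.48, adjusted p = 0.0466) and for Eps8, of a capping and bundling protein, which was higher in clone 2 (0.69, adjusted p = 0.0297). Without any 1 of the 4 knockout libraries the calls of Cyfip2 (adjusted p of 0.0541 to 0.306), Arpc5 (0.161 to 0.572) and Eps8 (0.0685 to 0.328) were lost. With library totals only in place of TMM all 3 calls were lost as well (adjusted p of 0.0651, 0.051 and 0.063), and that of Cyfip2 also in DESeq2 (0.0849).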

How the results depend on the processing

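Among the results recomputed, no called value changed sign in any setting. The knockout mean called 2 of the 9 genes with both clones fitted as 1 group, where 3488 of all genes were called, against 4561 with 1 coefficient per group. Clone 2 against WT called 2 of the 9 with library totals only, without the low-count filter, in DESeq2 and in limma-voom. Beside these counts, clone 2 had 2941 to 4008 of all genes called over the other settings that left no library out, against 3592. Leaving out 1 library gave 2 to 4 called genes in the knockout mean (2 without clone 2 replicate 1), 1 to 2 in clone 2 (2 without either WT library) and 1 to 4 between clones (1 without clone 1 replicate 1 or either clone 2 library). For the other actin genes it gave 37 to 56 calls against 57 in the knockout mean (37 without clone 2 replicate 1), 24 to 54 against 44 in clone 1 (24 without clone 1 replicate 2), 24 to 54 against 49 in clone 2 (24 and 28 without its replicates 1 and 2) and 6 to 29 against 18 between clones. Over all genes, calls between clones ranged from 156 to 1208 against 465 (156 to 247 without a knockout library, 1202 and 1208 without a WT library), and reached 813 without the low-count filter. Calls in clone 1 fell to 2205 from 4154 without its replicate 2, and in clone 2 to 1669 and 2083 from 3592 without its replicates 1 and 2. Where 1 sample was left in an arm, it was assumed to vary like the other groups; the cause of these shifts was not tested. The Tmsb4x share of the thymosin pair in WT, clone 1 and clone 2 was 91.4%, 78.1% and 44.8% by longest transcript and 89.7%, 74.6% and 40.0% by unique windows. In the fit of 2 groups Tagln (−1.54, adjusted p = 0.195) and Myl9 (−1.82, adjusted p = 0.0924) lost their calls.

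Replicate numbers did not pair the libraries: deviations of same-numbered libraries correlated across genes at 0.267 (WT and clone 1), −0.0939 (WT and clone 2) and −0.113 (both clones). With the replicate block 4, 4, 1 and 3 of the 9 genes were called in the knockout mean, clone 1, clone 2 and between clones, and 57, 48, 52 and 19 of the other actin genes. Of all genes, 3488 to 5022, 3424 to 4650, 2941 to 4008 and 370 to 813 were called in the same order. These ranges cover the replicate block and the other alternative settings that left no library out. Depth limits Actg1 among the 9 genes (68 to 286 counts per library). Among the other genes named it limits Lmod1 and Fhod3, with at most 21 and 28 counts in any library. It also limits the clone 2 values of Acta1 (5 and 5 counts), Tagln (0.926 and 0.652 CPM), Myl9 (0.494 and 0.652 CPM) and Lcp1 (0.309 and 0.652 CPM). In those libraries 3 counts correspond to 0.189 and 0.199 CPM. Acta1 had only 9 and 19 counts in WT as well. Sequence copies limit the reads counted for Actg1 and Tmsb10 to unique parts, and what sets the low Actg1 level was not tested.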
